A study of Mus musculus with 18 samples.

Results

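The 9 genes described here encode transcription factors that build red blood cells, and the receptor through which the hormone erythropoietin (Epo) drives that process: Gata1, Klf1, Tal1, Nfe2, Zfpm1, Gfi1b, Myb, Sox6 and Epor. They were chosen by name, and with earlier results of these data known, as were the gene lists used below. All 9 were among the 55385 genes of the deposited table and among the 18634 genes that passed the filter on low counts. They were measured by poly(A) RNA sequencing in spleens of mice of 3 genotypes. WT was wild-type C57BL/6J. Dp16 mice carry an extra copy of a segment of chromosome 16 and are used as a model of Down syndrome, since the segment matches the human chromosome that is trisomic in that condition. In Dp16_2xIFNRs mice, per the labels, the dosage of the interferon receptors was normalized on the Dp16 background; both Dp16 genotypes are called trisomic here. Each genotype had 6 libraries, 3 from males and 3 from females, with no treatment. Their age labels, given as days post conception, lie between 17.1 and 18, and what these stand for is not interpreted here.

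In mice the red pulp of the spleen makes red cells throughout life, and this output grows under anaemia, stress or raised Epo. GATA1 binds GATA motifs at nearly all red cell genes, together with its cofactor FOG1 (Zfpm1), with TAL1, KLF1 and NF-E2, and with the repressor GFI1B. MYB acts earlier, in dividing progenitors, and its level falls as erythroblasts mature, while the Epo receptor keeps early erythroblasts alive through JAK2 and STAT5.

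Library totals ran from 33998427 to 53021480 counts, and single members had between 183 and 24897 counts in a library. Comparing the 2 trisomic genotypes, the test called 4 genes, Ifnar1, Ifnar2, Ifngr2 and Il10rb, which encode chains of interferon and interleukin receptors. All 4 were lower in Dp16_2xIFNRs than in Dp16, by log2 fold changes of -0.46 to -0.59, the direction that the labels give. Against WT, Ifngr2 was called lower in Dp16_2xIFNRs (log2 -0.27, edgeR adjusted p = 0.0147). Ifnar1 (-0.17), Ifnar2 (0.09) and Il10rb (-0.07) were not called there. All 4 are outside the rule for named genes and were named after their values were seen. Of the members, none lies in the duplicated segment: Gata1 is on chromosome X, Klf1 and Zfpm1 are on chromosome 8, Tal1 on 4, Nfe2 on 15, Gfi1b on 2, Myb on 10, Sox6 on 7 and Epor on 9 (GRCm38). Values below are CPM, the counts of a gene scaled by its library's total. Fold changes come from edgeR's quasi-likelihood test with TMM scaling, which sets the WT libraries slightly lower than plain CPM does, and their adjusted p-values are Benjamini-Hochberg over all genes tested. A gene was called below an adjusted p of 0.05. The spread is between animals as the labels number them. The description labels also carry a code whose meaning they do not give: 5 of the 12 codes are shared across genotypes, by 11 libraries. With that code as a block (limma voom), 9, 8 and 0 members were called in the 3 comparisons, as without it.

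The 250 bases before the RefSeq start sites (GRCm38.p6) are shown for 6 members with 1 annotated start, 5 that rose clearly and Myb, which moved little, so that their motifs can be compared. Capitals mark words bound by GATA factors (AGATAA or TGATAA, or either ending in G in place of the last A) and the CACCC-like box CCNCNCCC bound by KLF factors, each on either strand, and the CACCC matches may overlap.
Gata1, chrX:7967911-7968160, minus strand: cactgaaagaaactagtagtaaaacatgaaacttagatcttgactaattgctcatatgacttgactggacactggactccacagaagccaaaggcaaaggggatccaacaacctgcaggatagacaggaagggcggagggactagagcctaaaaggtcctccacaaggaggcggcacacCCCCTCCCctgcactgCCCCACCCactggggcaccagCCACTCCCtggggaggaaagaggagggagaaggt
Klf1, chr8:84901732-84901981, plus strand: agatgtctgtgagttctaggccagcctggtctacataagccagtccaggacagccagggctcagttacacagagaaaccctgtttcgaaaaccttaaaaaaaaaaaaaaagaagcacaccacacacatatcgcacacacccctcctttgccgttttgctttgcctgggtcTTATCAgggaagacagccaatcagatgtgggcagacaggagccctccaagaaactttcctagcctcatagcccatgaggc
Gfi1b, chr2:28621983-28622232, minus strand: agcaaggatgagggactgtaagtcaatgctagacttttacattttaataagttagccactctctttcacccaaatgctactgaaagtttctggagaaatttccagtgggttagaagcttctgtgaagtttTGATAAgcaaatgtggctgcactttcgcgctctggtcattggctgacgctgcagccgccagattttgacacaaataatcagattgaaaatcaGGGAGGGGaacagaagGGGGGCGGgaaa
Epor, chr9:21963577-21963826, minus strand: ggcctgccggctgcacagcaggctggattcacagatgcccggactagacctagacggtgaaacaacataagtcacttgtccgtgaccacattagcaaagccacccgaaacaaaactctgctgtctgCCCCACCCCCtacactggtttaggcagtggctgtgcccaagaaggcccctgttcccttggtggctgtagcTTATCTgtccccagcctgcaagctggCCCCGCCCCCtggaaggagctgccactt
Zfpm1, chr8:122281891-122282140, plus strand: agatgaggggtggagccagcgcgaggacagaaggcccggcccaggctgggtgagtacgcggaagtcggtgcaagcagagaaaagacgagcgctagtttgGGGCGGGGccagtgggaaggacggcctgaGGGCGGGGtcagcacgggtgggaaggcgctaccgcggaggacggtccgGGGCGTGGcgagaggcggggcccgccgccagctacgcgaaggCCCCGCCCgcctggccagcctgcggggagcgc
Myb, chr10:21160985-21161234, minus strand: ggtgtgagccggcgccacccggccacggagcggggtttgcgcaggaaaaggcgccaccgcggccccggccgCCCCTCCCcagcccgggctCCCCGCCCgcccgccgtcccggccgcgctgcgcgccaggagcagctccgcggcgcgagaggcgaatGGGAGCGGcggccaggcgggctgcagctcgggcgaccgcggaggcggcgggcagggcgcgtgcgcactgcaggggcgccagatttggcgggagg
Klf1 held 1 GATA word at position -80 from the start, Gfi1b 1 at position -120 and Epor 1 at position -54. The windows of Gata1, Zfpm1 and Myb held no GATA word, but 3, 4 and 3 CACCC boxes. Over the 14 windows of the 8 members that had any, 5 held a GATA word and 8 a CACCC box. Of 32851 windows of all genes, 26.5% held a GATA word and 45.9% a CACCC box. The E-box CAGNTG, bound by TAL1 with its partners, was in 6 of the 14 windows and in 44.8% of all windows. The NF-E2 core TGANTCA was in none of the 14 member windows and in 6.7% of all windows. These are matches of letters in a window, and distal enhancers were not searched.

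All 9 genes were called higher in Dp16 spleens than in WT spleens, and 8 of them had fold changes between 2.16 (Zfpm1) and 3.65 (Klf1). Myb rose 1.24-fold. Among all genes tested 16.6% were called higher in that comparison. In Dp16_2xIFNRs against WT, 8 of 9 members were called higher, all but Myb, where 17.3% of all genes were. Both comparisons share the 6 WT libraries. Between Dp16_2xIFNRs and Dp16, none of the 9 was called by edgeR, against 0.0215% of all genes; DESeq2 and limma voom called none either, and none had an unadjusted p below 0.05, where 2.35% of all genes did. In bulk spleen RNA, more cells of the red lineage and more RNA per cell cannot be told apart.

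**Figure D1:**
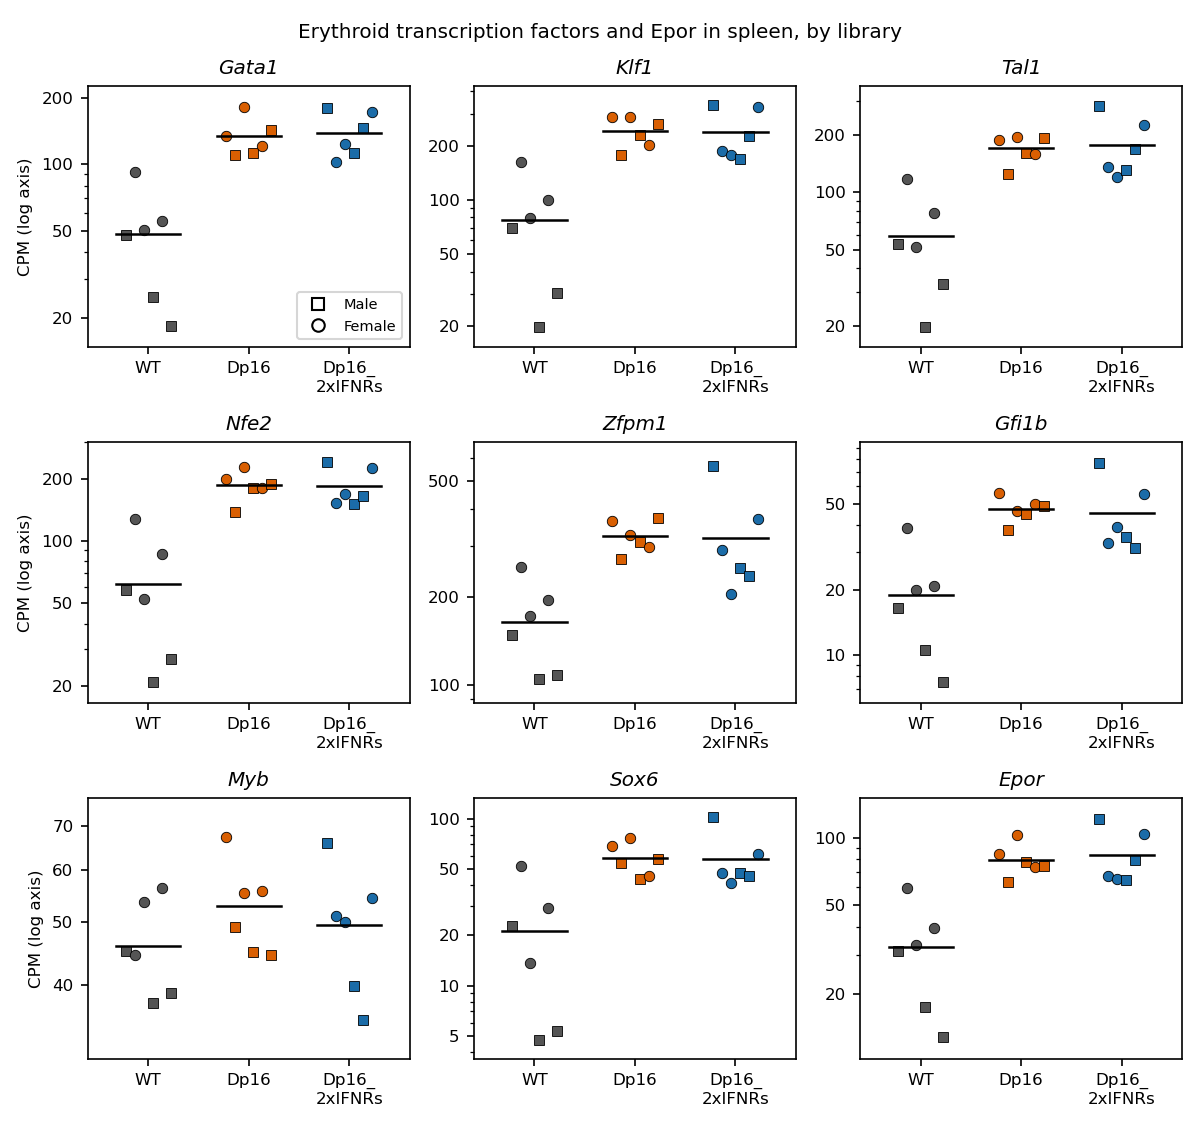
CPM of each member (log axis) in 18 spleen libraries, by genotype. Squares are males, circles females, and bars the mean of 6 libraries. WT libraries spread widely, with 2 males at the bottom for all 9 genes, and the trisomic libraries sit above most of them except for Myb.

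Gata1, the master regulator of the red lineage, stood at 18.5 CPM in the lowest WT library, with a median of 49.1 and a highest value of 92.3. In Dp16 it ran from 111 CPM over a median of 128 to 182, and in Dp16_2xIFNRs from 102 over 134 to 179. Each of the 12 trisomic libraries was above each WT library. The fold change was 3.14 in Dp16 (log2 1.65 ± 0.30 SE, n = 6 per genotype, adjusted p = 0.000855 by edgeR) and 3.31 in Dp16_2xIFNRs (log2 1.73 ± 0.30, adjusted p = 0.000606).

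Klf1, which switches on adult beta-globin and many red cell membrane genes, had a WT range of 19.7 to 162 CPM around a median of 74.4. Its Dp16 range was 177 to 287 CPM (median 245) and its Dp16_2xIFNRs range 168 to 334 CPM (median 206). Klf1 had no overlap with WT in either genotype and the highest fold change of the 9, 3.65 in both (log2 1.87 ± 0.39 SE in both, edgeR adjusted p = 0.00213 and 0.00200).

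Tal1, a helix-loop-helix factor that GATA1 meets in a complex bridged by LDB1 and LMO2, ran from 19.8 to 117 CPM in WT (median 52.9). It ran from 125 to 195 CPM in Dp16 (median 174) and from 121 to 284 in Dp16_2xIFNRs (median 152). The groups of 6 did not overlap with WT, though the lowest Dp16_2xIFNRs library was only just above the highest WT library. The log2 fold changes were 1.70 ± 0.35 SE (edgeR adjusted p = 0.00193) and 1.79 ± 0.35 (adjusted p = 0.00136).

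Nfe2, the p45 subunit of NF-E2 that pairs with small MAF proteins at globin control regions, stood between 20.8 and 128 CPM in WT (median 55.2). Dp16 libraries held 138 to 228 CPM (median 184) and Dp16_2xIFNRs libraries 151 to 239 CPM (median 166), again all above WT. The log2 fold change was 1.78 ± 0.33 SE in Dp16 (edgeR adjusted p = 0.000871) and 1.79 ± 0.33 in Dp16_2xIFNRs (adjusted p = 0.000811).

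Zfpm1 encodes FOG1, the cofactor through which GATA1 acts at many of its sites. Its CPM means were the highest of the members, with 105 to 253 CPM in WT (median 161) and 271 to 373 in Dp16 (median 317). In Dp16_2xIFNRs it spread from 204 to 562 CPM (median 270), overlapping WT. Its log2 fold changes of 1.11 ± 0.25 SE (edgeR adjusted p = 0.00316) and 1.10 ± 0.25 (adjusted p = 0.00335) were the lowest of the members apart from Myb.

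Gfi1b, a repressor that recruits LSD1 and CoREST and is needed for red cells and platelets, ran from 7.55 to 38.5 CPM in WT (median 18.3). It ran from 38.0 to 55.7 CPM in Dp16 (median 47.2) and from 31.1 to 77.0 in Dp16_2xIFNRs (median 37.0). WT replicate 2, a female, reached into both trisomic groups, and the other 5 WT libraries lay below them. The log2 fold changes were 1.48 ± 0.32 SE (edgeR adjusted p = 0.00247) and 1.44 ± 0.32 (adjusted p = 0.00287).

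Sox6, which silences embryonic globin and aids the last steps of red cell maturation, was the most variable member in WT, from 4.73 CPM over a median of 18.2 to 51.8. It ran from 43.4 to 76.6 CPM in Dp16 (median 55.9) and from 41.2 to 102 in Dp16_2xIFNRs (median 47.0). Only WT replicate 2 overlapped with the trisomic groups. The log2 fold changes were 1.64 ± 0.48 SE (edgeR adjusted p = 0.0182) and 1.67 ± 0.49 (adjusted p = 0.0172). Without the 4 libraries in which Gm42418, a locus that takes up ribosomal RNA reads, held over 4% of counts, Sox6 gave log2 1.29 with an adjusted p of 0.128 in Dp16 and 1.45 with 0.0769 in Dp16_2xIFNRs.

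Epor, the receptor itself, ran from 12.8 to 59.8 CPM in WT (median 32.1), from 63.2 to 103 in Dp16 (median 76.4) and from 64.9 to 121 in Dp16_2xIFNRs (median 73.2). No trisomic library fell into the WT range. The log2 fold change was 1.47 ± 0.29 SE in Dp16 (edgeR adjusted p = 0.00143) and 1.56 ± 0.29 in Dp16_2xIFNRs (adjusted p = 0.000901). The hormone gene Epo, made mainly in the kidney, had at most 1 count in any library.

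Myb behaved differently. The gene keeps progenitors dividing and is shut down in maturing erythroblasts. It ran from 37.5 to 56.4 CPM in WT (median 44.7), from 44.4 to 67.4 in Dp16 (median 52.1) and from 35.4 to 65.9 in Dp16_2xIFNRs (median 50.5). The 3 groups overlapped over most of their range. The fold change was 1.24 in Dp16 (log2 0.32 ± 0.11 SE, edgeR adjusted p = 0.0292), and 1.17 in Dp16_2xIFNRs did not pass (log2 0.23 ± 0.11, adjusted p = 0.117). The Dp16 call was lost without WT replicate 2, 4 or 6, or without Dp16 replicate 1, 2 or 3, with log2 fold changes from 0.27 to 0.31 and adjusted p from 0.0502 to 0.0775. It was also lost with upper quartile scaling (0.25), the RPKM values (0.20 with 0.1 added), no low count filter (0.28) or no sex term (0.32). Without the libraries rich in Gm42418 it gave log2 0.29 with an adjusted p of 0.131. An antisense gene, Gm26577, overlaps Myb exons on the opposite strand; it reached at most 0.547 CPM.

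Counted by ranges, 6 of 9 members had all Dp16 libraries above all WT libraries, where 4.57% of all genes tested did. In Dp16_2xIFNRs it was 5 of 9, where 4.49% of all genes did. WT replicate 2, a female, was the highest WT library for 8 of 9 members, and the males WT replicate 4 and WT replicate 6 were lowest for 6 and 3. Dp16_2xIFNRs replicate 1, a male, was highest in its group for all 9 members.

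**Figure D2:**
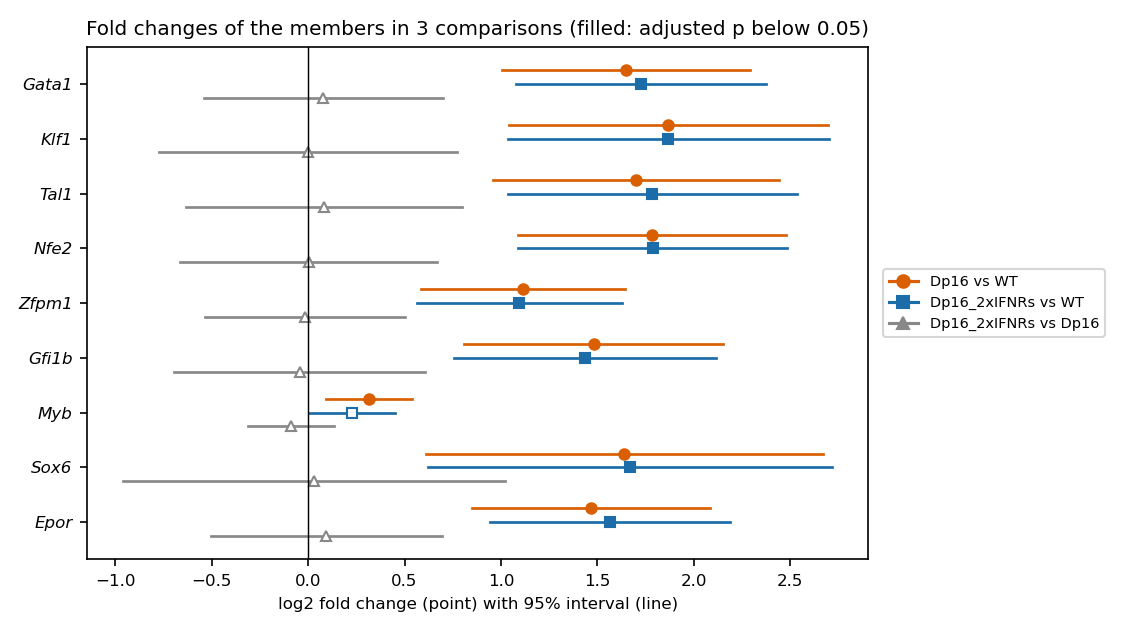
Log2 fold change of each member (point) with its 95% interval (line) in 3 comparisons from the edgeR fit; filled points have an adjusted p below 0.05. The 2 comparisons with WT lie between 1.10 and 1.87 for all genes but Myb, and all 9 intervals of Dp16_2xIFNRs against Dp16 span 0.

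With interferon receptor dosage normalized per the labels, the 9 genes had no called difference from Dp16. The log2 differences ran from -0.09 for Myb to 0.09 for Epor, with adjusted p of 1 in edgeR. The 95% interval of the fold was 0.687 to 1.62 for Gata1, 0.704 to 1.62 for Epor and 0.585 to 1.71 for Klf1. It was widest for Sox6, 0.514 to 2.03, and narrowest for Myb, 0.806 to 1.10. Differences within these intervals are compatible with the values. The intervals are per gene and not adjusted for the number of genes tested, so they are no limit of detection.

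Per length, in the authors' RPKM, the order of levels in WT was led by Klf1 (mean 50.3 RPKM ± 33.7 SD, n = 6) and Zfpm1 (48.4 ± 16.6), with Nfe2 at 27.3, Gata1 at 25.3 and Epor at 18.4. Tal1 at 13.8, Myb at 12.2, Gfi1b at 10.4 and Sox6 at 2.27 RPKM followed, and every pair of neighbours overlapped. In Dp16, Klf1 at 157 ± 30.1 RPKM stood clear of Zfpm1 at 95.3 ± 11.7. Gfi1b at 25.9 and Myb at 14.0 had changed places, with ranges that no longer overlapped. The order in Dp16_2xIFNRs was the same as in Dp16, from 155 RPKM for Klf1 down to 6.12 for Sox6, with all neighbours overlapping.

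Because the members rose by different amounts, each was set against Gata1 within its own library, as the log2 ratio of CPM with a prior count of 2. The 34 ratio tests were two-sided exact permutation tests over all splits of 12 libraries, adjusted together by Benjamini-Hochberg. They had no sex term, and they use the libraries of the fold changes above, so they are not separate support for those. For Klf1, Tal1, Nfe2 and Sox6 no difference in the ratio passed: in Dp16 against WT it was 0.30, 0.09, 0.19 and 0.25 on the log2 scale. For Gfi1b it was -0.15 in Dp16 and -0.33 in Dp16_2xIFNRs (exact permutation, adjusted p = 0.0736 for the latter), and for Epor -0.19 in both genotypes (exact permutation p = 0.0195, adjusted p = 0.0662); neither passed.

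Zfpm1 did fall behind. Its log2 ratio to Gata1 averaged 1.89 ± 0.38 over the 6 WT libraries (SD), against 1.28 ± 0.23 for Dp16 and 1.14 ± 0.39 for Dp16_2xIFNRs. The difference from WT was -0.60 in Dp16 (exact permutation p = 0.00433, adjusted p = 0.0368) and -0.75 in Dp16_2xIFNRs (exact permutation p = 0.0108, adjusted p = 0.0460). WT replicate 1 at 1.63 and WT replicate 2 at 1.46 lay within the trisomic range of Zfpm1 to Gata1, 0.70 to 1.65. The highest ratios were those of WT replicate 6 (2.54) and WT replicate 4 (2.08), the WT libraries with the least Gata1. Whether the ratio follows the level of Gata1 was not tested. Myb fell behind most. In WT it stood at about the level of Gata1, log2 ratio 0.11 ± 0.72, and in Dp16 at -1.34 ± 0.30, a difference from WT of -1.44 (exact permutation p = 0.00433, adjusted p = 0.0368). In Dp16_2xIFNRs the ratio was -1.49 ± 0.35 and the difference -1.60 (exact permutation p = 0.00433, adjusted p = 0.0368). WT replicate 2, with -1.05, was the only WT library within the trisomic range of Myb to Gata1.

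Against the mean of 19 red cell product genes, such as globins and membrane proteins, the same 2 genes were lower: Zfpm1 by -0.77 and -0.85 and Myb by -1.60 and -1.70 on the log2 scale in Dp16 and Dp16_2xIFNRs (exact permutation, adjusted p = 0.0368 to 0.0421). Gata1 itself differed by -0.16 and -0.11 from these products, which did not pass. All 8 of these calls, to Gata1 and to the products, were lost when Dp16 replicate 3 was left out, with differences from -0.52 to -1.70 and an adjusted p of 0.0552. The Dp16_2xIFNRs values are the same there and lost their call through the joint adjustment. The Zfpm1 ratio to Gata1 in Dp16_2xIFNRs also missed the threshold without WT replicate 3, 4, 5 or 6, or without Dp16_2xIFNRs replicate 3, 4, 5 or 6, with differences from -0.61 to -0.77. The Zfpm1 ratio to the products in Dp16_2xIFNRs was lost likewise without Dp16_2xIFNRs replicate 3, 4, 5 or 6, with differences from -0.81 to -0.85.

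**Figure D3:**
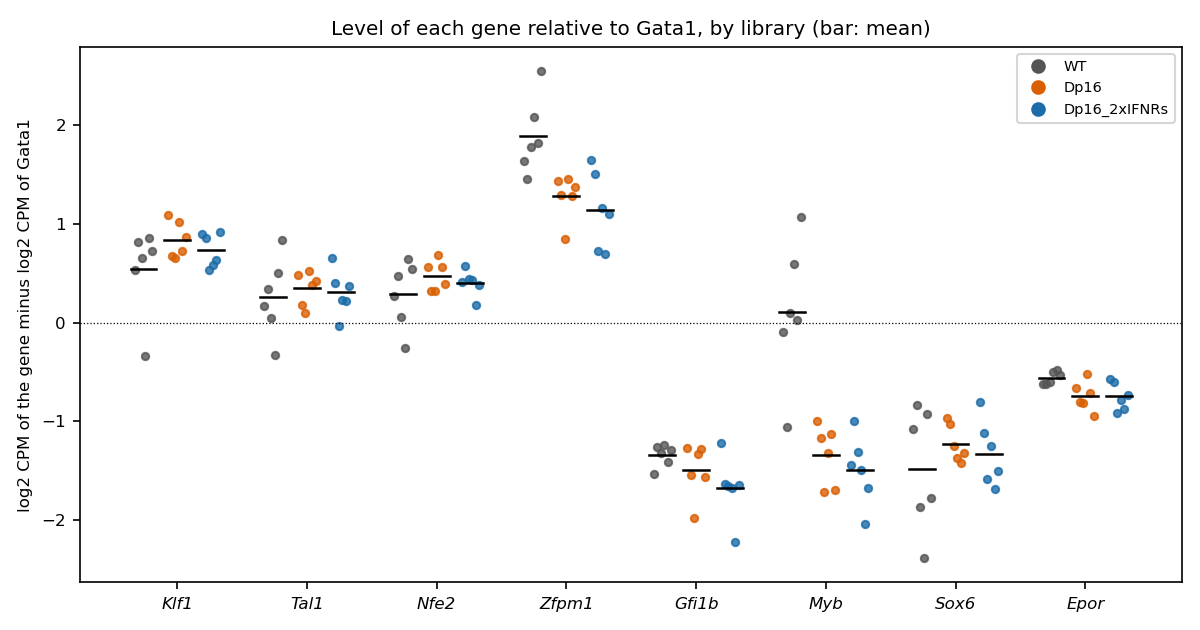
Log2 CPM of each gene minus log2 CPM of Gata1 in every library; bars are the means of 6 libraries per genotype. The means of Zfpm1 and Myb are lower in both trisomic genotypes than in WT, though some libraries overlap. Those of Klf1, Tal1, Nfe2 and Sox6 overlap too.

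The animals of 1 genotype also differed together. After genotype and sex means were removed, the log2 CPM of the 8 members other than Myb moved alike over the 18 libraries, with Pearson r from 0.657 to 0.969 over their 28 pairs (median 0.847). Pairs with Myb ran from 0.236 to 0.635 (median 0.376). All of these points share the libraries and their depth, and the values are a description. Gata1 and Epor had r = 0.953, Gata1 and Myb 0.236.

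**Figure D4:**
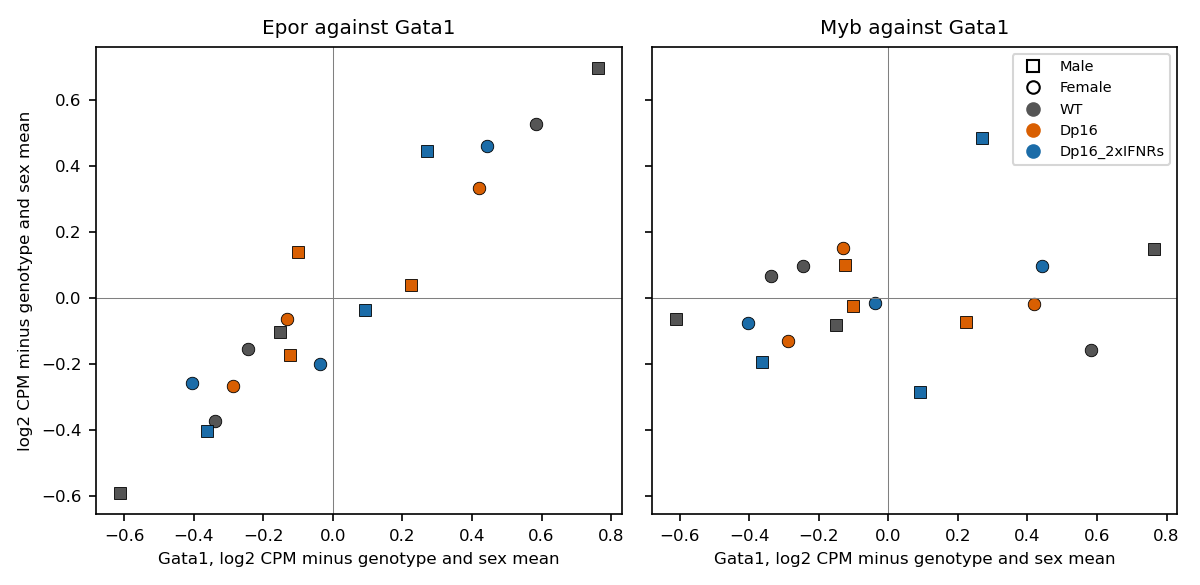
Residual log2 CPM of Epor (left) and Myb (right) against Gata1 in 18 libraries after removal of genotype and sex means; squares are males, circles females. Epor follows Gata1 (r = 0.953) and Myb scatters (r = 0.236).

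Genes nearest to each member in these residuals were found among 15043 genes. Nearest to Gata1 were Cdkn2d, a cell cycle inhibitor (r = 0.950, Spearman rho 0.915), Lockd, the haem synthesis enzyme Ppox, Ankrd9 and Pi4k2b, down to r = 0.939. Nearest to Epor were Lmo2, the bridging protein of the GATA1 and TAL1 complex (r = 0.963, rho 0.967), Slc2a4, Ankrd9, Cenpl and Ppox. Nearest to Sox6 were red cell membrane genes: Ermap (r = 0.977, rho 0.977), beta-spectrin Sptb, Dmtn and ankyrin Ank1, with Ccdc92b. Nearest to Myb were Rmnd5a (r = 0.896, rho 0.765), Gid4, Cdan1, Fam120a and Llgl1, none of which is in the other 3 sets.

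Female means were higher than male means for 9 of 9 members in WT and in Dp16 and for 1 of 9 in Dp16_2xIFNRs, where 50%, 53.6% and 51.8% of all genes had a higher female mean. In WT all 3 females lay above all 3 males for Gata1, Klf1, Zfpm1, Gfi1b and Epor, 5 of 9, where 7.37% of all genes did. Gata1 was at 18.5, 24.9 and 47.99 CPM in the 3 WT males and at 50.2, 55.2 and 92.3 CPM in the 3 WT females. In Dp16 only Myb had all females above all males, 1 of 9 against 5.22% of all genes, and in Dp16_2xIFNRs no member did, against 3.79%.

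The WT sex difference was log2 1.14 ± 0.36 SE for Gata1, and it ran from 0.36 for Myb to 1.55 for Sox6. None was called by edgeR (lowest adjusted p = 0.276), although all 9 had an unadjusted p below 0.05. Of all genes, 0.14% were called and 6.86% had such an unadjusted p. The rise over WT was larger in males by estimate: Gata1 rose by log2 2.13 in Dp16 males and 1.25 in Dp16 females, and Klf1 by 2.61 and 1.28. The interaction of sex with genotype was called for no member and 0% of all genes in any of the 3 comparisons by edgeR. Unadjusted p was below 0.05 for 0 of 9 members in Dp16 against WT and for 8 of 9 in Dp16_2xIFNRs against WT (all but Myb, lowest 0.0161, adjusted p = 1), where 2.36% and 4% of all genes did. With 3 animals per sex and genotype, and both lowest WT libraries being male, these differences rest on few animals.

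The partners of these factors did not move as a block. Of 12 partner genes, 1 was higher in Dp16 and 3 were lower, where 13.2% of all genes were lower (14.2% in Dp16_2xIFNRs), with a median log2 fold change of -0.06 beside -0.01 for all genes. Lmo2 rose (log2 0.65 ± 0.14 SE, edgeR adjusted p = 0.00206), and the E-protein Tcf12 (-0.32), the chromatin remodeller Chd4 (-0.28) and the corepressor Cbfa2t3 (-0.35) fell. In Dp16_2xIFNRs 1 was higher and 3 lower. Cbfa2t3 was named after its values were seen. Chd4 and Cbfa2t3 both lost their Dp16 call, so that 1 partner was lower, without WT replicate 1, 3 or 4, without Dp16 replicate 3, 4 or 5, without the libraries rich in Gm42418 or with a library index term (adjusted p from 0.0525 to 0.180). Chd4 lost it without Dp16 replicate 6 as well. The count higher was 3 without WT replicate 5 and 2 without Dp16 replicate 6 or Dp16_2xIFNRs replicate 6. It ran from 1 to 3 over the 16 other settings. Cbfa2t3 lost its Dp16_2xIFNRs call without WT replicate 1, 3, 4 or 6, Dp16 replicate 6 or Dp16_2xIFNRs replicate 4, 5 or 6. It was also lost without haemoglobin genes, without the libraries rich in Gm42418 or with only the 12 libraries compared (edgeR adjusted p from 0.0533 to 0.265 over these fits).

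Among 7 relatives of NFE2, 3 rose and 2 fell in Dp16 (median log2 0.39), where 16.6% and 13.2% of all genes did. The same shares apply to the other regulators below. The small MAF partner Mafg rose (log2 0.50 ± 0.10 SE, edgeR adjusted p = 0.000737), as did Bach1 (0.48 ± 0.08, adjusted p = 0.000113), a haem-sensing repressor at the same sites that lies inside the duplicated segment. Bach2, its relative in B cells, fell (-0.92 ± 0.18, adjusted p = 0.000945). Of 11 other regulators of red cell formation, 4 rose and 4 fell (median 0.02): E2f4, which drives erythroblast division, rose (0.76 ± 0.12, adjusted p = 0.000116), and the glucocorticoid receptor Nr3c1 (-0.47) and the fetal globin repressor Bcl11a (-0.40) fell. Here Dp16_2xIFNRs had 3 higher and 2 lower NFE2 relatives, and 3 higher and 4 lower regulators. There 17.3% of all genes were higher and 14.2% lower. Over the other settings and the fits that left out 1 library, 3 or 4 regulators were higher in Dp16. Which cells of the spleen these transcripts came from was not tested.

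Downstream of the receptor, 6 of 19 tested genes rose in Dp16 and 5 fell (median log2 -0.12), where 16.6% and 13.2% of all genes did. Tfr2, which associates with the Epo receptor, rose (1.51 ± 0.23 SE, edgeR adjusted p = 0.000181). The negative regulators Sh2b3, or LNK (-0.63 ± 0.10, adjusted p = 0.000174), and Ptpn6, or SHP-1 (-0.40 ± 0.07, adjusted p = 0.000257), fell. B cell markers fell as well (7 of 7, median log2 -0.68), and which cells these values came from was not tested. Some genes induced by Epo through STAT5 were also picked after their values were seen. They do not stand for the other genes downstream of the receptor, and a change in Epo signalling was not tested. Bcl2l1, which encodes the survival protein BCL-XL, rose by log2 1.29 ± 0.22, Cish, a feedback inhibitor, by 0.54 ± 0.14, and Erfe, the hormone erythroferrone, by 3.25 ± 0.75 (adjusted p = 0.00435). Erfe ran from 0.0426 to 2.48 CPM in WT and from 2.41 to 15.3 in Dp16. In Dp16_2xIFNRs 5 genes rose and 7 fell, where 17.3% and 14.2% of all genes did, and Erfe gave log2 3.37. Over the other settings and the fits that left out 1 library, 5 or 6 genes were higher in Dp16 and 5 to 7 lower.

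Red cell products rose together: 19 of 19 tested genes were higher in both genotypes, where 16.6% and 17.3% of all genes were. The products' median log2 fold change was 1.70 in Dp16 and 1.72 in Dp16_2xIFNRs. Without the libraries rich in Gm42418, Ank1, Aqp1 and Kel lost their Dp16 call (edgeR adjusted p = 0.0581, 0.0543 and 0.0938). Aqp1 and Kel were named after their values were seen. Hbb-bt rose by log2 1.66 ± 0.27 SE in Dp16 (edgeR adjusted p = 0.000398), Hba-a1 by 1.40, and the haem enzyme Alas2 rose 2.82-fold. The members' own median was 1.64 in Dp16 and 1.67 in Dp16_2xIFNRs. These globin genes have near-identical copies, so counting may split their reads.

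**Figure D5:**
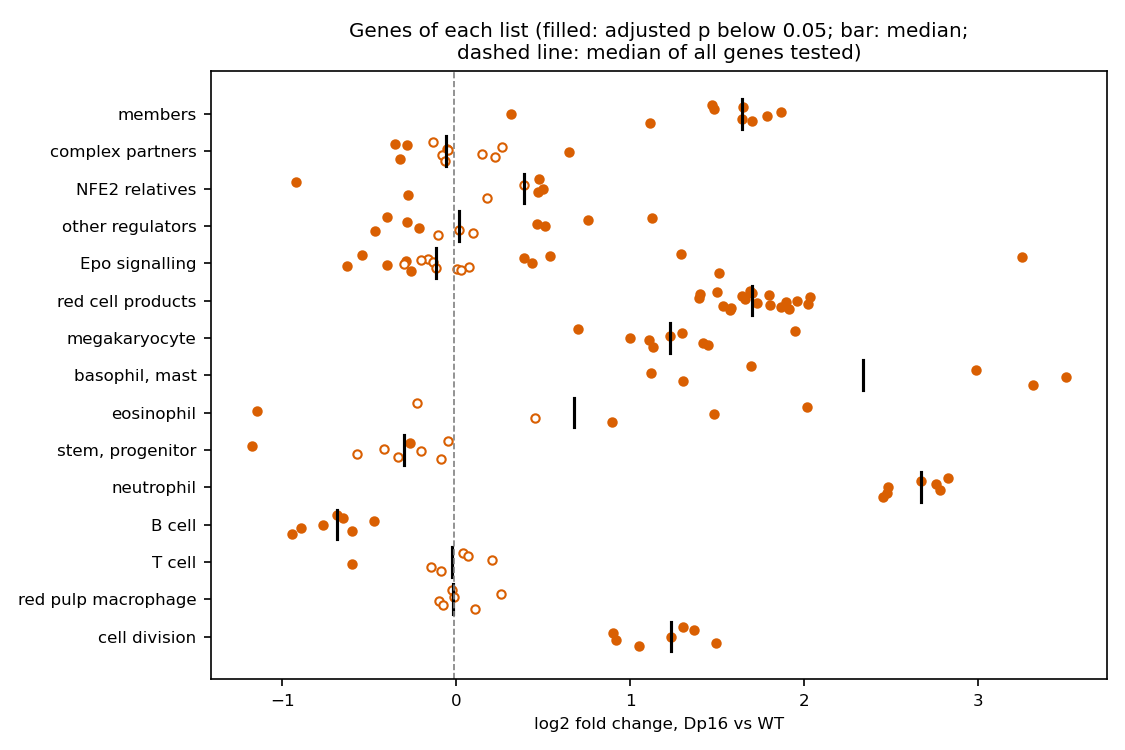
Log2 fold change in Dp16 against WT for the members and for 14 lists of related genes or cell type markers (filled points: adjusted p below 0.05 in edgeR; bar: median of the list; dashed line: median of all genes). Red cell products lie between 1.40 and 2.03, and complex partners between -0.35 and 0.65.

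Several members are also active in other cells, and those cells' markers moved too. Of all genes, 16.6% were called higher and 13.2% lower in Dp16, and 17.3% and 14.2% in Dp16_2xIFNRs. GATA1, FOG1, NFE2, TAL1 and GFI1B serve megakaryocytes: 9 of 9 megakaryocyte markers were higher in Dp16 (median log2 1.23; Clec1b 0.70 and Gp9 1.23), with summed levels of 189 to 352 CPM in WT, 313 to 1069 in Dp16 and 331 to 676 in Dp16_2xIFNRs. GATA1 also serves basophils, mast cells and eosinophils. All 6 basophil and mast cell markers rose (median 2.34; Prss34 3.32 and Mcpt8 3.51), summing to 12.8 to 34.9 CPM in WT and 47.97 to 178 in Dp16. Of 6 eosinophil markers 3 rose, among them Prg2 (1.48), and Il5ra fell (-1.15). The count higher in Dp16 ran from 2 to 4 over the other settings and over the fits that left out 1 library. In Dp16_2xIFNRs 2 were higher. The eosinophil sums were 73.3 to 120 CPM in WT and 73.9 to 266 in Dp16. None of these lists had a marker at 0 in any library. Their part in the members' rise was not tested.

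Of 8 stem and progenitor markers, which bear on Myb, 0 were called higher in Dp16 and 2 lower, Hlf (log2 -1.17) and Flt3 (-0.27). Among all genes 16.6% were called higher and 13.2% lower there, and 17.3% and 14.2% in Dp16_2xIFNRs. The stem and progenitor sums were 145 to 184 CPM in WT and 110 to 151 in Dp16. Hoxa9 was at 0 in at least 1 Dp16 library. The count lower was 1 without WT replicate 4, 5 or 6 or Dp16 replicate 3 and ran from 0 (without the libraries rich in Gm42418) to 4 over the other settings. In Dp16_2xIFNRs 0 were higher and 4 lower; the latter was 1 without WT replicate 5 and 2 without WT replicate 1 or 6, Dp16 replicate 6 or any of Dp16_2xIFNRs replicates 1, 3, 4, 5 and 6. Cell division markers rose, 7 of 7 (median 1.24, with Mcm5 0.90 and Pcna 0.92), from sums of 576 to 1999 CPM in WT to 1913 to 2698 in Dp16. Mki67, named after its values were seen, lost its call without the libraries rich in Gm42418 (log2 0.88, edgeR adjusted p = 0.113). Neutrophil markers rose, 7 of 7 (median 2.67, with S100a9 2.45 and S100a8 2.48), from 425 to 1893 CPM to 2804 to 9725 CPM. B cell markers fell, 7 of 7 (median -0.68; Fcmr -0.89 and Cr2 -0.77), from 3048 to 4653 CPM to 1961 to 2454 CPM. Of T cell markers only Cd8a fell (-0.60; Cd4 gave 0.21), and of 6 red pulp macrophage markers none was called in Dp16 by edgeR (Cd163 0.26, Spic -0.08). In Dp16_2xIFNRs 1 was called, Cd163 (0.65 ± 0.22 SE, adjusted p = 0.0300), a call lost without WT replicate 1, 2 or 3 or without Dp16_2xIFNRs replicate 1, 3 or 6, and with upper quartile scaling, the RPKM values, no low count filter, no sex term or the replicate number as a block. The markers that define spleen, those of B cells and red pulp macrophages, were present in every library. Their part in the members' values was not tested.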

How the data were processed

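Poly(A) RNA of 18 mouse spleens was sequenced. The deposited values are raw whole-number counts per gene and RPKM made by the authors; over 11538 genes the RPKM equalled counts scaled by library total and a gene length. The submitters' processing notes list HTSeq 0.6.1, HISAT2 2.1.0, SAMtools 1.5, FastQC 0.11.5, bcl2fastq and the GRCm38 build, without roles. The kit was strand-specific per the labels' protocols; whether counting used strand is not given in the sources used here. Samples were grouped by title. Counts were fitted with edgeR 4.0.16 (R 4.3.3; TMM, quasi-likelihood, sex as a term, all 18 libraries), after a filter that kept 18634 genes; the script was tested on simulated data. Sex interactions, ratio tests by exact permutation (scipy 1.17.1), DESeq2 1.42.0 and limma 3.58.1 were added. Library totals of 33998427 to 53021480 limit rare genes only. Positions came from GENCODE vM21, matched for 55144 of 55385 genes. Named genes were the members, the genes of smallest p in Dp16 against WT in each list (3, or 2 for cell markers) and the 5 nearest genes for Gata1, Myb, Sox6 and Epor. The members and lists were chosen with earlier results of these data known. Nfe2 had no RefSeq window in the table used. Every comparison of the groups used all mapped libraries, and none was left out of the fit.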

Additional observations from a re-analysis of the deposited data

Results flagged for a closer look

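Of 27 combinations of a member and a genotype, 1 had a library far from the other 5. Sox6 stood at 102 CPM in Dp16_2xIFNRs replicate 1, a gap to the next library of 0.677 of the group's whole range. Chance alone gives about 1 such library in 20 groups. The same library was highest in its group for all 9 members.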

How the results depend on the processing

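Over 16 other settings and 18 fits that each left out 1 library, the number of members called in Dp16 against WT was 7 to 9, in Dp16_2xIFNRs against WT 7 or 8, and between the trisomic genotypes 0. Only Myb and Sox6 lost a call in these fits, as given in the report; Sox6 in Dp16_2xIFNRs also missed the threshold when only the 12 libraries compared were fitted (log2 1.73, adjusted p = 0.0536), and no called value changed direction. With the replicate number as a block, 9, 8 and 0 members were called in the 3 comparisons; the numbers do not pair the animals (mean correlation of deviations 0.02 for the same number), and the block changed no member's call. Without Dp16 replicate 3 the ratio tests gave 0 calls against Gata1 in place of 4 and 0 against red cell products in place of 4; leaving out each library in turn gave 0 to 6 and 0 to 5. For Gfi1b and Epor, leaving out 1 library brought a ratio to Gata1 past the threshold, Dp16_2xIFNRs replicate 1 for both (-0.43 and -0.22) and, for Epor, also Dp16_2xIFNRs replicate 2 (-0.21) or, in Dp16, Dp16 replicate 4 (-0.23); the Epor ratio to the products in Dp16 passed without WT replicate 2 (-0.41). Without the libraries rich in Gm42418 the relatives of NFE2 lower in Dp16 numbered 1 in place of 2, the other regulators lower 2 in place of 4, and the complex partners lower in Dp16_2xIFNRs 1 in place of 3 (5 from RPKM). Scaling moved the split of all genes: 3091 higher and 2462 lower in Dp16 with TMM, 2558 and 3333 with upper quartile scaling, and 2220 and 3924 from RPKM with 0.1 added, where the median of all genes shifted to -0.13. Alternatives for the sex interaction were chosen after seeing the data and gave 0 calls. Intervals and depth cover these animals only, and 3 animals per sex and genotype limit the sex comparisons.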
